A study of Mus musculus with 6 samples.

Results

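Postn, Aspn and Dpt encode 3 extracellular matrix proteins that are made mainly by fibroblasts and their relatives. They were followed across 6 two-channel arrays of RNA from endothelial cells sorted from mice, in which tobacco smoke was compared with control. The genes were selected on their values in these same arrays, so what follows describes them and tests none of them. They are 3 of the 11138 genes to which the probe table gave a single symbol, and their 6 spots, 2 for each gene, are 6 of the 32448 features on an array. Both spots of each gene were annotated to the same sequence record, and whether they carry one probe is not given in the sources used here. Close values at the 2 spots may therefore not be independent readings of the gene.

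On each array, channel 1 held RNA of smoke-exposed mice and channel 2 RNA of control mice, per the labels. For the 1-week exposure there were 3 arrays, including 1 dye reversal, and the time point of their control was not stated. For the 6-week exposure there were 3 more: 2 arrays, with dyes exchanged, paired its RNA with 1-week control, and 1 array paired it with 6-week control. The labels name no strain, age, sex, tissue or sorting marker, give no smoke dose, and do not say whether arrays came from separate animals or pools. The 1-week dye reversal may repeat the RNA of another array, and arrays against 1-week control may share control RNA. Where p-values are given, they therefore measure the spread between these arrays, which may be technical, and the small number of arrays limits the precision.

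The deposited value is a log2 ratio, so a value of 1 stands for a 2-fold difference. It was kept with its deposited sign on every array and read as smoke over control, which makes a positive value likely higher after smoke, although neither the direction nor the dye of either channel was stated. Only ratios were used here, so the endothelial identity of the cells could not be checked in levels, the signal of a spot over background is unknown, and the abundance of 1 gene cannot be set against that of another. In sorted cells, a change in the share of one cell type and a change in RNA per cell cannot be told apart.

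Periostin, the product of Postn, is a secreted protein with fasciclin domains that binds integrins and collagen and is laid down where tissue is remodelled. Its transcription responds to TGF-beta, a cytokine that drives matrix production. Asporin, the product of Aspn, is a small leucine-rich proteoglycan that binds collagen and TGF-beta. Dermatopontin, the product of Dpt, is a small tyrosine-rich protein that binds decorin and helps collagen fibrils to assemble, and its transcript is a common marker of tissue fibroblasts. Endothelial cells rest on a basement membrane and are not the usual source of any of these transcripts.

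The sequences just before the start sites of the 3 genes are shown because Postn and Aspn had ratios of one sign on every array and Dpt of the other. Each is the 250 bases upstream of a RefSeq start site in assembly GRCm38.p6, on the plus strand, printed 5′ to 3′. All 3 genes matched the RefSeq table by symbol, and Postn has 2 start sites in it. The windows are chr3:54359017-54359266 and chr3:54360857-54361106 for Postn, chr13:49544193-49544442 for Aspn and chr1:164796413-164796662 for Dpt. Capitals mark TATAAA or CAGAC on either strand.
Postn, start site 1: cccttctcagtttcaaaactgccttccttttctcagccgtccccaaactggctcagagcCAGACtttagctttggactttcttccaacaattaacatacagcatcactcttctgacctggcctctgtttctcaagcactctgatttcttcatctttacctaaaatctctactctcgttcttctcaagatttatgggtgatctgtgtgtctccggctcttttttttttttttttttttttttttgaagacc
Postn, start site 2: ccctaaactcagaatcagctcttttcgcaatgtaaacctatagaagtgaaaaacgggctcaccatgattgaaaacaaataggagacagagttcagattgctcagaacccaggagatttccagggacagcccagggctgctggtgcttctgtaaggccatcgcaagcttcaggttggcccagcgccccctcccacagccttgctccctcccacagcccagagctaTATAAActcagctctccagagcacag
Aspn: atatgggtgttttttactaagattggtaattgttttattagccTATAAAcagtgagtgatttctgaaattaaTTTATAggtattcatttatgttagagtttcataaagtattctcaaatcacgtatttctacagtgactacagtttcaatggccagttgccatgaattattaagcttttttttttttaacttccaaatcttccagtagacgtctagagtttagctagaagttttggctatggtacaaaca
Dpt: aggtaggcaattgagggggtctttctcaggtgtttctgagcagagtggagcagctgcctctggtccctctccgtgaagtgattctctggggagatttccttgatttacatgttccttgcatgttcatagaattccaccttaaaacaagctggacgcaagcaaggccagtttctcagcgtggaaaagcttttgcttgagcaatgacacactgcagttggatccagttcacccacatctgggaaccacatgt
Both strands were searched for 3 motifs. The first was TATAAA, the core promoter element that the TATA-binding protein recognises. The second was CAGAC, an element that the SMAD proteins of TGF-beta signalling recognise. The third was CANNTG, the E-box of basic helix-loop-helix factors. The second Postn window held TATAAA with its first base at position -26 from the start, and the Aspn window held it at -207 and, on the minus strand, at -178. CAGAC was found only in the first Postn window, at -191, and not in the Aspn, Dpt or second Postn windows. The Dpt window held 6 E-boxes, at -243, -224, -200, -39, -18 and -7, the Aspn window 1, at -97, and neither Postn window any. Of 32851 windows of the same length in that table, 12.4% held TATAAA, 42.2% held CAGAC and 66.2% held CANNTG. These motifs do not overlap one another in the windows shown, and a match is a description of letters, not evidence of binding.

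Across the arrays, Postn and Aspn had ratios above 0 and Dpt had ratios below 0 on all 6. Of the 11138 named genes, 3.24% were positive on all 6 arrays and 3.43% were negative on all 6. The signs of the 3 genes on the 2 dye-reversed arrays were those on the 4 others. The values differed with exposure time in all 3 genes, and the direction of that difference was upward in each: Postn and Aspn lay further above 0 at 6 weeks, and Dpt lay closer to 0.

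**Figure D1:**
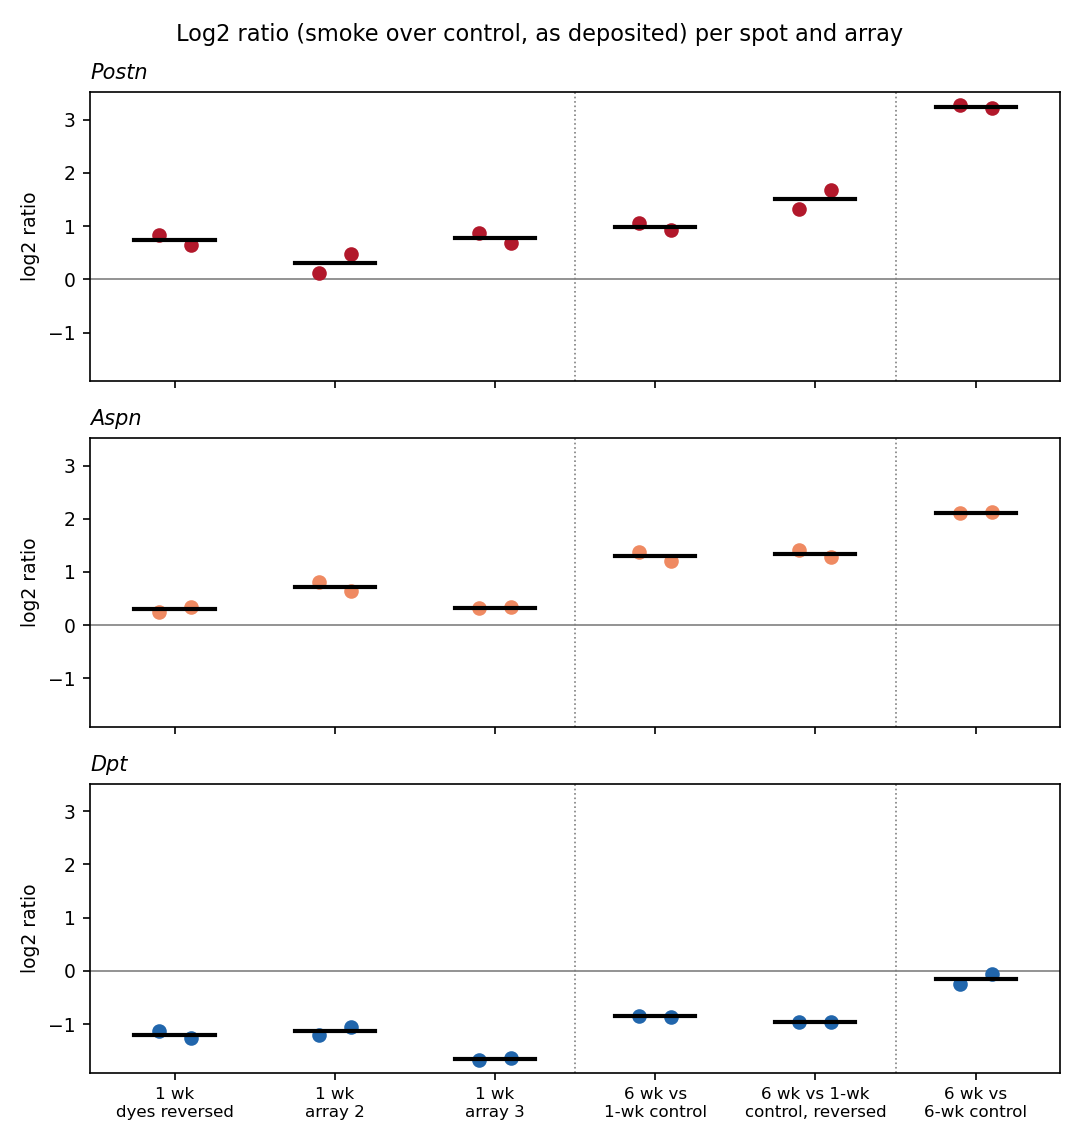
Log2 ratio of smoke over control, as deposited and centred on each array's median (vertical axis), for each of the 2 spots of Postn, Aspn and Dpt on the 6 arrays (horizontal axis). Points are spots and bars are the mean of the 2 spots; Postn reaches 3.25 on the array against 6-week control, and Dpt runs from -1.66 on 1-week array 3 to -0.15 on that array.

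Postn had log2 ratios of 0.75 on the dye-reversed 1-week array, 0.30 on 1-week array 2 and 0.78 on 1-week array 3. At 6 weeks it had 0.99 and, with exchanged dyes, 1.50 against 1-week control, and 3.25 against 6-week control. The 1-week values were all below the 6-week values, and the array against 6-week control stood well above both others at that time. The 1-week mean was 0.61 ± 0.27 (SD, n = 3), a 1.52-fold higher ratio. The mean of the pair with exchanged dyes was 1.25, or 2.37-fold, and the single array against 6-week control gave 9.51-fold. Among the named genes, Postn ranked 436 from the top by its 1-week mean and 2 by its 6-week mean of 2.25 ± 1.42 (SD, n = 2), where the pair counts as 1 replicate. It had the highest ratio of all named genes on the array against 6-week control. That array decided its size at 6 weeks: without it the 6-week mean was 1.25 and the 6-week minus 1-week difference fell from 1.64 to 0.64.

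The 2 Postn spots gave close values, so the high ratio did not come from 1 spot. On the array against 6-week control they read 3.28 and 3.22, and on the array against 1-week control 1.05 and 0.93. On the array with exchanged dyes they read 1.32 and 1.68, and at 1 week 0.84 and 0.65 on the dye-reversed array, 0.11 and 0.49 on array 2, and 0.87 and 0.69 on array 3. The largest distance between its spots on any array was 0.37, against a median largest distance of 0.99 over the named genes, and 9.62% of them had a smaller one.

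Aspn had log2 ratios of 0.30, 0.72 and 0.33 at 1 week, in the same order of arrays. At 6 weeks it had 1.29 and 1.35 against 1-week control and 2.11 against 6-week control. The arrays of the pair with exchanged dyes differed by only 0.06, and every 6-week value lay above every 1-week value. The 1-week mean was 0.45 ± 0.24 (SD, n = 3) and ranked 899 from the top of the named genes. The pair's mean was 1.32, or 2.49-fold, the array against 6-week control gave 4.33-fold, and the 6-week mean of 1.72 ± 0.56 (SD, n = 2) ranked 8. Without the array against 6-week control the 6-week minus 1-week difference was 0.87 in place of 1.27. The Aspn spots were among the closest on these arrays: their largest distance was 0.18, and 1.27% of named genes had a smaller one. They read 2.10 and 2.12 on the array against 6-week control, 1.37 and 1.21 against 1-week control, and 1.42 and 1.28 with exchanged dyes.

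Dpt had log2 ratios of -1.20, -1.13 and -1.66 at 1 week, again in that order. At 6 weeks it had -0.86 and -0.96 against 1-week control and -0.15 against 6-week control. It was low on the 3 arrays of 1 week, less low against 1-week control at 6 weeks, and near 0 against 6-week control. The 1-week mean of -1.33 ± 0.29 (SD, n = 3) was a 2.51-fold lower ratio and ranked 23 from the bottom of the named genes. At 6 weeks the pair's mean of -0.91 was 1.88-fold lower, the single array against 6-week control was 1.11-fold lower, and the 6-week mean of -0.53 ± 0.53 (SD, n = 2) ranked 482 from the bottom. Without the array against 6-week control its 6-week minus 1-week difference was 0.42 in place of 0.80. Its spots differed by at most 0.19, and 1.50% of named genes had closer spots. On the array against 6-week control they read -0.25 and -0.06, and on the pair -0.85 with -0.86 and -0.97 with -0.96.

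Set side by side by exposure time, the 6-week minus 1-week difference in mean log2 ratio was 1.64 for Postn, 1.27 for Aspn and 0.80 for Dpt. These ranked 14, 59 and 356 from the top of the 11138 named genes. In all 3 genes the lowest 6-week array lay above the highest 1-week array, and 4.81% of the named genes had that order. Over all 19242 tests, limma's moderated test with Benjamini-Hochberg adjustment called no feature for the difference (0%), none at 1 week (0%) and none at 6 weeks (0%), at an adjusted p under 0.05. Unadjusted p-values fell under 0.05 for 684, 1280 and 792 features, and limma without moderation called 5 for the difference, 0 at 1 week and 5 at 6 weeks. These counts are the background of the contrasts that chose the members, and nothing about the members is read from them. The 6-week mean also joins arrays against different controls, so exposure time and control are partly mixed in this difference. Against 1-week control alone, the pair's means of 1.25, 1.32 and -0.91 still lay above the 1-week means of 0.61, 0.45 and -1.33 for Postn, Aspn and Dpt.

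**Figure D2:**
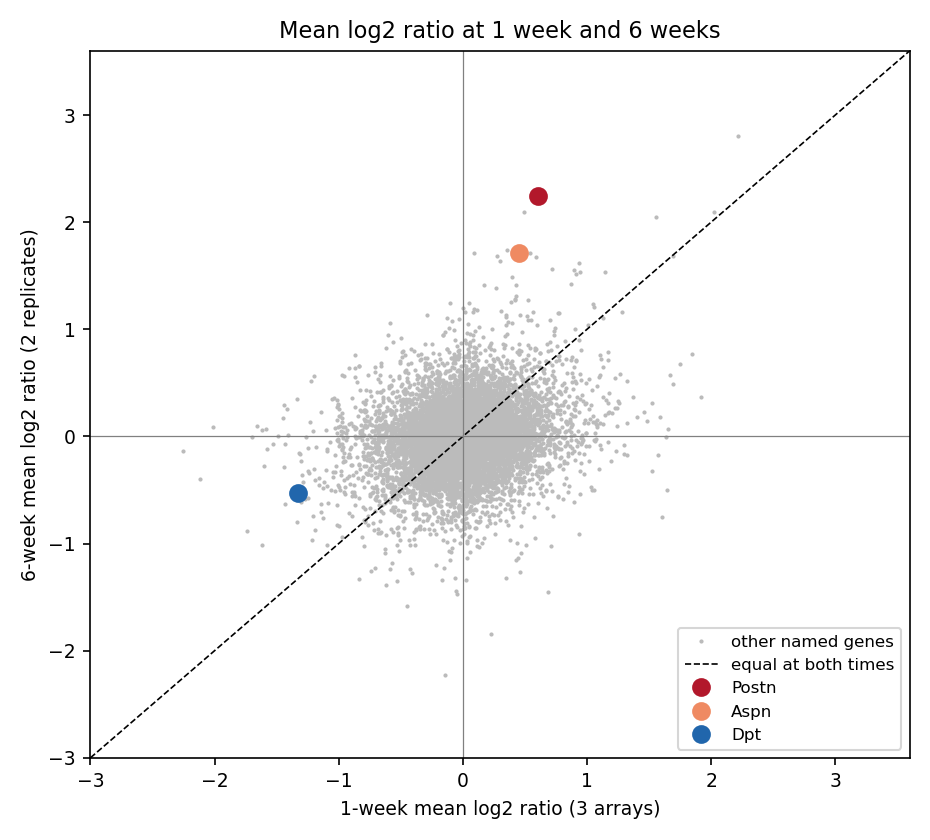
Mean log2 ratio at 1 week (horizontal axis, 3 arrays) and at 6 weeks (vertical axis, 2 replicates) for the 11138 named genes, with Postn, Aspn and Dpt coloured and a dashed line of equality. All 3 lie above the line, Postn and Aspn in the upper right with 6-week means of 2.25 and 1.72, and Dpt in the lower left at a 1-week mean of -1.33.

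By control, the array against 6-week control minus the mean of the arrays against 1-week control gave 2.0 for Postn, 0.80 for Aspn and 0.76 for Dpt on the log2 scale. The ranks from the top were 24, 733 and 836. In all 3 genes the array against 6-week control lay above both arrays against 1-week control, as it did for 33.7% of the named genes. The arrays of the pair themselves lay 0.51 apart for Postn, 0.06 for Aspn and 0.11 for Dpt, with a median of 0.42 over the named genes. If both arrays of the pair hold the same RNA, which the labels do not state, that distance covers technical spread and not the spread between RNA samples. Since 1 array carries the 6-week control, no replicate of it exists, and control age, array and smoke-exposed RNA cannot be told apart. In a limma fit with a term for each control, 0 of the 19242 tests (0%) were called, 1139 had an unadjusted p under 0.05, and limma without moderation called 1. The spread of that fit came from the 1-week arrays, and the single replicates were assumed to vary like them.

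**Figure D3:**
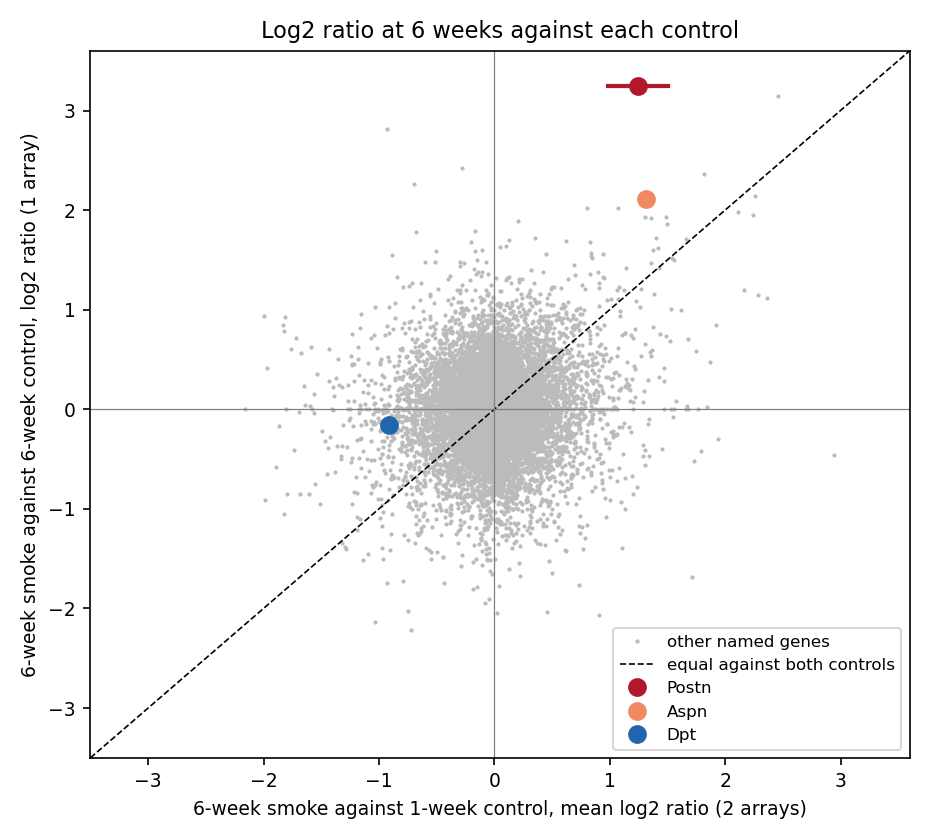
Log2 ratio at 6 weeks against 1-week control (horizontal axis, mean of 2 arrays) and against 6-week control (vertical axis, 1 array) for the 11138 named genes, with a dashed line of equality. Coloured points are Postn, Aspn and Dpt, and their horizontal lines join the 2 arrays averaged; Postn lies highest of all genes at 3.25, and all 3 lie above the line.

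The sign of a dye-reversed array bears on these values. If the deposited ratio of the 6-week dye reversal were turned, the arrays of the pair would have opposite signs in all 3 genes, and the control differences would be 3.51 for Postn, 2.14 for Aspn and -0.21 for Dpt, so that Dpt alone would change direction. The 6-week means would be 1.50 for Postn, 1.04 for Aspn and -0.05 for Dpt. Turned together with the 1-week dye reversal, the 1-week means would be 0.11 for Postn and -0.53 for Dpt. The arrays of the pair correlated at -0.03 across the named genes and at 0.05 across genes with agreeing spots. The highest correlation between any 2 of the 6 arrays was that of the dye reversals with each other, at 0.27 and 0.43. Across genes with agreeing spots, the 1-week dye reversal correlated at 0.18 and 0.23 with 1-week arrays 2 and 3. It correlated at 0.15 with the array against 6-week control and at -0.01 with the unreversed array against 1-week control. The 6-week dye reversal correlated at 0.18 with the array against 6-week control and at -0.02 with each of 1-week arrays 2 and 3. Among unreversed arrays, 1-week array 2 correlated at 0.39 with 1-week array 3 and at 0.31 with the 6-week array against 1-week control. The part of a dye effect in these ratios was not tested. As deposited, each of the 3 genes had one sign on both arrays of the pair.

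The 3 genes shared a course over the arrays more than a level. Across the 6 arrays, Pearson's r was 0.86 between Postn and Aspn, 0.85 between Postn and Dpt and 0.93 between Aspn and Dpt. These describe 6 points whose arrays may share control RNA, and the 3 genes were chosen for such patterns. The root mean square difference over the 6 arrays was 0.58 between Postn and Aspn, 2.34 between Postn and Dpt and 2.03 between Aspn and Dpt.

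Likeness to each gene was then measured over all named genes as the root mean square difference in log2 ratio over the 6 arrays. The 5 genes closest to Postn were Serpina1c at 0.53, Aspn at 0.58, Gem at 0.63, Ecrg4 at 0.64 and Hmgn3 at 0.66. Closest to Aspn were Ecrg4 at 0.37, Serpina1c at 0.38, Rasl11a at 0.38, Gkn3 at 0.39 and Spi1-6 at 0.41. Ecrg4 and Serpina1c stood on both lists, and Aspn stood on that of Postn while Postn was not among the closest to Aspn. Serpina1c, a serine protease inhibitor of the alpha-1-antitrypsin family, read 0.51, 0.55 and 0.43 at 1 week and 1.47, 2.17 and 2.36 at 6 weeks. Postn exceeded each of its 5 closest genes on the array against 6-week control, where they read between 1.72 and 2.36.

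Closest to Dpt were Gng5 at 0.18, Mt2 at 0.20, Ndufb7 at 0.31, Uqcc2 at 0.36 and Rpp21 at 0.38. Gng5, a G protein gamma subunit, read -1.09, -1.02 and -1.35 at 1 week and -0.95, -0.74 and -0.06 at 6 weeks. Mt2, a metal-binding metallothionein, read -1.06, -1.19 and -1.65 at 1 week and -0.51, -1.11 and -0.42 at 6 weeks. None of the 5 is a fibroblast marker or matrix gene of the lists used here. Spots of Hmgn3, Rasl11a and Gkn3 lay over 1 log2 unit apart on at least 1 array, at 1.08, 1.32 and 1.90, so their averages are less certain.

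**Figure D4:**
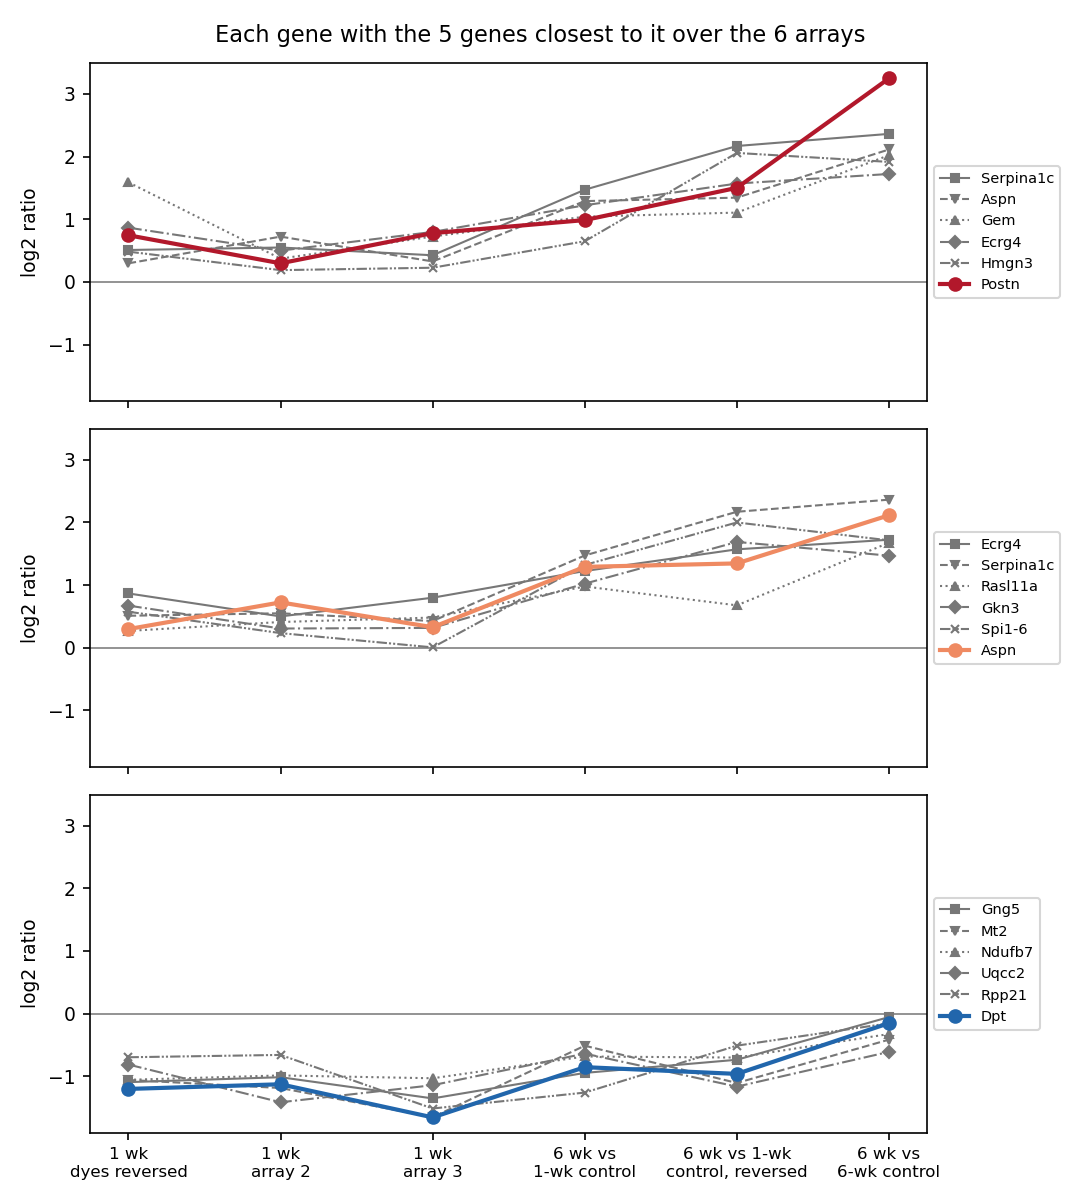
Log2 ratio (vertical axis) on each of the 6 arrays (horizontal axis) for Postn, Aspn and Dpt in colour and for the 5 named genes closest to each in grey. Lines join the arrays for reading only; Postn reaches 3.25 on the array against 6-week control, above all 5 genes near it, and all genes near Dpt stay below 0 on every array.

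Next came the genes that belong to the same families and pathways, from lists of matrix, TGF-beta and marker genes in which the members themselves were not counted. Over all named genes, 48.9% had a positive 1-week mean and 48.9% a positive 6-week mean, and the median over all features was 0 at both times. Among the 5625 genes with agreeing spots, meaning spots never as much as 1 log2 unit apart on any array, limma called 102 at 1 week (1.81%), 12 at 6 weeks (0.213%), and none for the 6-week minus 1-week difference (0%) or for the control difference (0%). Unadjusted p-values fell under 0.05 for 378 and 243 of them in those last contrasts. The filter follows spot distance and not the ratio, but it was applied with these data known.

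Of the small leucine-rich proteoglycans, the family of Aspn, 10 were measured. At 1 week 7 were positive and 3 negative, with a median of 0.17, and at 6 weeks 7 were positive and 3 negative, with a median of 0.05. None was called. Biglycan (Bgn), which is close to Aspn in the family, read 0.69, -0.21 and 0.78 at 1 week and 1.66, 1.40 and 1.01 at 6 weeks. Its 6-week values lay above its 1-week values, and its 6-week mean was 1.27 (limma's adjusted p among genes with agreeing spots 0.166). Decorin (Dcn), the proteoglycan that dermatopontin binds, read -0.72, -0.26 and -0.65 at 1 week and -0.21, -0.21 and -0.09 at 6 weeks, negative on all 6 arrays like Dpt but smaller in size. Ogn, a proteoglycan gene of the same cluster as Aspn on chromosome 13, read -0.21, -0.25 and -0.43 at 1 week and -0.23, 0.01 and 0.21 at 6 weeks.

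The genes that flank the 3 members in the RefSeq gene order are given as a description, since the members were chosen for their size. Ecm2, the neighbour of Aspn on one side, had means of 0.17 at 1 week and 0.06 at 6 weeks, and Omd, on the other side, had 0.17 and 0.34. Next to Postn, Trpc4 had means of -0.20 and -0.04 and Supt20 of 0.18 and -0.17. Next to Dpt, Atp1b1 had means of -0.14 and 0.39 and Xcl1 of -0.03 and 0.00.

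Of the fasciclin-domain proteins and partners of periostin, 10 were measured. At 1 week 5 were positive and 5 negative, and at 6 weeks 7 were positive and 3 negative, with medians of -0.04 and 0.15, and none was called. Tgfbi, the closest relative of periostin among them, read -0.14, -0.32 and -0.44 at 1 week and 0.31, -0.10 and 0.27 at 6 weeks. Lox, the enzyme that cross-links collagen and that periostin helps to activate, read 0.80, -0.38 and 0.09 at 1 week and 0.25, 1.36 and 2.02 at 6 weeks. It was high on the same array as Postn, but its values ran widely within each time, with a 6-week mean of 1.41 (limma's adjusted p 0.226 among genes with agreeing spots). Tnc, the tenascin that periostin binds, had means of -0.18 and 0.12. The integrin subunits of this list did not share one direction, and none was called. Itgb1 read -0.97, 0.74 and 0.57 at 1 week and 1.48, 0.21 and 1.51 at 6 weeks, with a 6-week mean of 1.18 and spots up to 1.92 log2 units apart. The 6-week means were 0.34 for Itgb3, -0.02 for Itgav and -0.11 for Itgb5.

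Of the genes whose products bind dermatopontin or assemble collagen, 21 were measured, with medians of -0.11 at 1 week and -0.06 at 6 weeks and none called. Pcolce2, an enhancer of procollagen processing, read 0.25, 0.58 and 0.52 at 1 week and 0.90, 0.38 and 1.08 at 6 weeks, opposite in sign to Dpt on every array. Fbln5, which organises elastic fibres, read 0.39, 0.22 and 0.56 at 1 week and 0.73, 0.21 and 0.86 at 6 weeks. Neither was called.

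The interstitial collagens build the fibres on which all 3 proteins act. Of 13 measured, 4 were positive and 9 negative at both times, with medians of -0.30 at 1 week and -0.05 at 6 weeks, and none was called. Col3a1 read -1.68, -0.40 and 0.02 at 1 week and -0.27, -0.37 and 0.08 at 6 weeks. Col14a1 read -1.71, -0.08 and -1.30 at 1 week and -0.14, -0.61 and 0.04 at 6 weeks. By array, the collagen median was -0.17, -0.17 and -0.05 at 1 week and -0.21, -0.02 and 0.04 at 6 weeks. For the 6-week minus 1-week difference, 11 of the 13 were positive with a median of 0.18, upward like the 3 genes, against 50.2% positive among the named genes. That median was 0.07 without the dye-reversed 1-week array and -0.07 with both dye reversals turned, and the 1-week median with both turned was 0.08.

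Matricellular proteins, the class of secreted regulators to which periostin belongs, were measured for 17 genes, with medians of -0.14 and -0.12. Among the 14 with agreeing spots, 2 were called at 1 week. Ccn1, a growth factor-inducible protein, read 1.09, 0.67 and 1.21 at 1 week and 0.53, 0.64 and 0.41 at 6 weeks, with a 1-week mean of 0.99 (SE 0.16, limma's adjusted p 0.0241). Sparcl1, an adhesion-modulating protein, read -1.51, -0.60 and -1.17 at 1 week and -0.27, -0.71 and -0.44 at 6 weeks, with a mean of -1.09 (SE 0.19, limma's adjusted p 0.0281). Ccn2, a TGF-beta target made by fibroblasts and endothelium, read 0.62, 0.48 and 1.51 at 1 week and 1.16, 1.69 and 1.41 at 6 weeks and was not called (limma's adjusted p 0.0783 and 0.0917).

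TGF-beta ligands, receptors and targets, the pathway that Postn responds to and asporin binds, gave no list-wide shift, with 10 of 26 positive at 1 week, 13 of 26 at 6 weeks, and medians of -0.04 and 0.00. Among the 16 with agreeing spots, 2 were called at 1 week, both higher. Id3, a target of BMP signalling, read 1.39, 0.71 and 1.24 at 1 week and -0.17, 0.24 and -0.27 at 6 weeks, with a 1-week mean of 1.12 (SE 0.18, limma's adjusted p 0.0241). Bmp4, a BMP ligand, read 0.62, 0.88 and 0.79 at 1 week and 1.45, 0.70 and 1.23 at 6 weeks, with a mean of 0.76 (SE 0.15, limma's adjusted p 0.0393). Matrix proteases and their inhibitors were measured for 18 genes, with medians of -0.05 and -0.01 and none called. Among them Mmp2 read -0.12, -0.13 and 0.12 at 1 week and 0.69, 0.12 and 0.82 at 6 weeks, and Timp3 was positive on all 6 arrays with means of 0.54 and 0.82.

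Fibroblast markers other than the 3 genes were negative more often than positive. Of 28 measured, 6 were positive and 22 negative at 1 week and 9 and 19 at 6 weeks, with medians of -0.23 and -0.15. The list median was below 0 on every array, from -0.41 on the dye-reversed 1-week array to -0.06 on 1-week array 3, and was -0.20 on the array against 6-week control where Postn read 3.25. For the 6-week minus 1-week difference, 19 of 28 were positive with a median of 0.32, upward like the 3 genes. That median was 0.11 without the dye-reversed 1-week array and -0.11 with both dye reversals turned. At 6 weeks, 4 of the 28 were positive on all 3 arrays (Gas1, Vim, Mmp2 and Fbln2) and 11 were negative on all 3. The share of all named genes with either pattern was not counted, so nothing is read from the 4 and the 11. Gas1, a growth arrest protein of the cell surface, read 0.65, 0.63 and 1.31 at 6 weeks. Vim, the mesenchymal filament vimentin, read 0.82, 1.01 and 0.81. Their 6-week means were 0.98 and 0.86. Neither was called (limma's adjusted p among genes with agreeing spots 0.185 and 0.236). Among the 19 with agreeing spots, 2 were called at 1 week, both lower like Dpt. Pi16, a marker of adventitial fibroblasts, read -0.72, -0.56 and -1.20 at 1 week and -0.54, -0.15 and -0.27 at 6 weeks, with a 1-week mean of -0.83 (SE 0.17, limma's adjusted p 0.0489). Gsn, an actin-severing protein abundant in fibroblasts, read -1.41, -0.40 and -1.31 at 1 week and -0.21, -0.33 and -0.49 at 6 weeks, with a mean of -1.04 (SE 0.21, limma's adjusted p 0.0489). No fibroblast marker was positive on all 6 arrays, and 6 of the 28 were negative on all 6, beside 3.24% and 3.43% of the named genes. Those with the lowest 1-week means were Igfbp6 at -1.21 and Islr at -1.14, and neither of them was called. With both dye reversals turned the list median was 0.02 at 1 week and 0.01 at 6 weeks.

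Each of those 6 calls (Ccn1, Sparcl1, Id3, Bmp4, Pi16 and Gsn) was lost without the dye-reversed 1-week array, without 1-week array 3 and without the array against 6-week control. Without 1-week array 2 only Gsn kept its call, and without either array of the pair Bmp4, Pi16 and Gsn lost theirs. All 6 were also lost with both dye reversals turned, where the 1-week means of Ccn1, Sparcl1, Id3, Bmp4, Pi16 and Gsn were 0.26, -0.09, 0.19, 0.35, -0.35 and -0.10. None reversed its sign in any of the 20 alternatives.

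Markers of other cells that a sort could hold were read beside the members, since their share could move with the ratios. Smooth muscle and pericyte markers, 15 in number, had medians of 0.07 at 1 week and 0.09 at 6 weeks, and from -0.00 to 0.51 by array. On all 3 of the 6-week arrays 5 of the 15 were positive and 0 negative. How often the named genes had one sign on those 3 arrays was not counted, so nothing is read from these counts. Among the 5, Abcc9 read 0.89, 1.39 and 1.42 and Kcnj8, its potassium channel partner in pericytes, read 0.90, 0.47 and 1.45. Acta2, smooth muscle actin, read 0.49, 1.39 and 1.33. These genes were picked once their values were known, and the spots of Abcc9 lay up to 1.14 log2 units apart. By 6-week mean, 9 of the 15 were positive and 6 negative. On the array against 6-week control, where Postn was highest, 10 were positive and 5 negative, the lowest being Actg2 at -1.43. The 20 endothelial markers had medians of -0.06 and -0.29, and were lowest on the dye-reversed 6-week array at -0.56. Medians at 1 and 6 weeks were -0.10 and -0.04 for 24 leukocyte markers, -0.09 and 0.04 for 14 epithelial and mesothelial markers, and 0.06 and -0.24 for 9 adipocyte markers. No gene of these lists was called. By control, 52.9% of the named genes were higher on the array against 6-week control than on the mean of the pair. Of the 20 endothelial markers, 18 were higher, with a median difference of 0.29. With the 6-week dye reversal turned that median was -0.38. As deposited, 16 of 28 fibroblast markers (57.1%) were higher, near the share of the named genes, with a median of 0.05. The part of cell composition in the values of Postn, Aspn and Dpt was not tested.

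**Figure D5:**
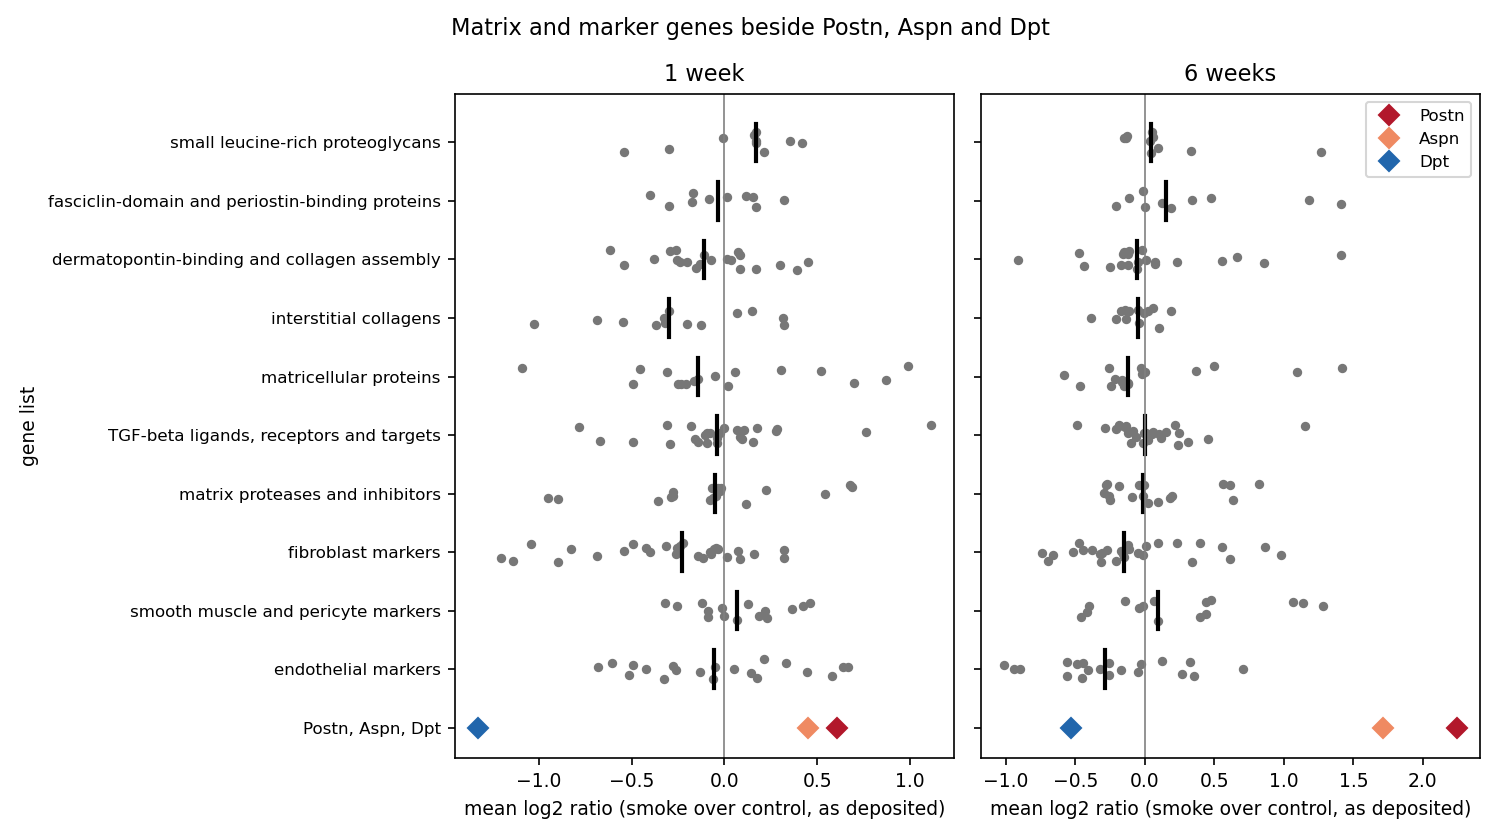
Mean log2 ratio (horizontal axis) at 1 week (left) and 6 weeks (right) for measured genes of 10 lists of matrix and marker genes, with the members excluded from the lists and drawn as diamonds in the bottom row. Grey points are genes, jittered vertically, and black bars are list medians; at 6 weeks Postn at 2.25 and Aspn at 1.72 lie to the right of every list gene, and at 1 week Dpt at -1.33 lies to the left of every list gene.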

How the data were processed

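The deposited value table gives 1 log2 ratio per feature and array. The authors' scanner, background correction, normalization, dyes, log base and direction are not given in the sources used here. The values are log2 of folds in whole hundredths (within 0.02 of a hundredth) for 100% of values on 5 arrays and 99.988% on 1-week array 2. The median deposited value of every array was 3e-07. There were no missing values, and intensities were not used.

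A probe table named 24344 features with 1 symbol, 98 with several and 8006 with none; 24076 named features matched RefSeq (GRCm38.p6) by Entrez identifier, and 0 symbols changed. Arrays were centred on their median, all signs kept as deposited, and spots of a gene averaged. The dye-swapped 6-week pair was averaged as 1 replicate, giving 5 replicates. Linear models were fitted in R 4.3.3 with limma 3.58.1 (lmFit, eBayes) over 19242 tests (3 residual degrees of freedom; 2 with a term for each control), two-sided, with Benjamini-Hochberg adjustment and a threshold of 0.05. The code was tested on simulated data. Members and lists were chosen with earlier results of these data known. Genes were named by rule: the members, the 5 closest genes to each, list genes that were called, and up to 4 genes per matrix or TGF-beta list with the smallest p. Ecm2, Omd, the flanking genes, Tnc, Itgav, Itgb3, Itgb5, Gas1, Vim, Fbln2, Igfbp6, Islr, Abcc9, Kcnj8, Acta2 and Actg2 fall outside it, chosen once their values were known. Alternatives covered dye signs and terms, averaging, scaling, spots, variance model, threshold and left-out arrays.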

Additional observations from a re-analysis of the deposited data

Results flagged for a closer look

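Among the closest genes and the list genes picked by the naming rule, 2 changed sign between exposure times. Each had one sign on every 1-week array and the opposite sign on every 6-week array. The share of all named genes with that pattern was not counted. Epyc, a small leucine-rich proteoglycan like Aspn, read 0.20, 0.46 and 0.40 at 1 week and -0.01, -0.17 and -0.18 at 6 weeks, a 6-week minus 1-week difference of -0.49. Tgfb1i1, a focal adhesion protein induced by TGF-beta, read -0.68, -0.71 and -0.97 at 1 week and 0.18, 0.40 and 0.20 at 6 weeks, a difference of 1.03. The sign pattern itself was not tested. In limma's test of the difference over all features, neither passed (adjusted p = 0.951 for both). The spots of Tgfb1i1 lay up to 1.22 log2 units apart on 1 array, and the part of spot disagreement in its values was not tested.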

How the results depend on the processing

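Of 189 values of Postn, Aspn and Dpt recomputed under alternatives, 170 moved by less than 1 SD, 17 moved further and 2 reversed. The 170 do not measure stability. For a 1-week or 6-week mean the SD was that of its own replicates, and leaving 1 replicate out can never move the mean that far. The 6-week mean of Postn, 2.25 and 1.25 without the array against 6-week control, was among the 170. Some alternatives also left the arrays behind a value untouched. Every recomputed value kept its sign except the control difference of Dpt, which was -0.21 with the 6-week or both dye reversals turned. Turning the 6-week dye reversal, alone or with the other, also gave control differences of 3.51 for Postn and 2.14 for Aspn and 6-week means of 1.50 for Postn, 1.04 for Aspn and -0.05 for Dpt. Turned alone it gave 6-week minus 1-week differences of 0.59 for Aspn and 1.28 for Dpt. Turning both gave 1-week means of 0.11 for Postn and -0.53 for Dpt and a difference of 0.79 for Aspn. Quantile normalization gave differences of 2.96 and 1.74 and control differences of 4.72 and 1.93 for Postn and Aspn. With 1 array left out, the difference ran from 0.64 to 1.77 for Postn from 0.87 to 1.40 for Aspn and from 0.42 to 0.90 for Dpt, each lowest without the array against 6-week control. Over all features the calls at 1 and 6 weeks became 102 and 12 with agreeing spots only, and without moderation 5 at 6 weeks, 5 for the difference and 1 for the control difference. Among genes with agreeing spots the 1-week calls were 0 with both dye reversals turned, 18 in the 4 arrays without dye reversal, 64 after quantile normalization, 1 without moderation, 25 with a term for each control, 29 and 30 with the 1-week dye reversal averaged with array 2 or 3, 210 at a threshold of 0.10, and 1 to 84 with 1 array left out. The 6-week calls were 0 with the 6-week or both dye reversals turned, 34 with dye as a term, 38 with the pair not averaged, 1 in the 4 arrays, 2 after quantile normalization, 0 without moderation, 3 with a term for each control, 26 at 0.10, and 0 to 21 with 1 array left out. Calls for the difference were 1 with the 6-week dye reversal turned, 5 with dye as a term, 4 with the pair not averaged, 1 with robust variances, 1 at 0.10, and 0 to 1 with 1 array left out. For the control difference, 1 was called with dye as a term and 1 without moderation. The cause was not tested. Alternatives within the agreeing spots and on lists were chosen after seeing the data. A fit with 1 term for both controls cannot give the control difference, and without the array against 6-week control it has no value. Each ratio already set smoke against control within 1 array. Arrays of the 2 exposure times could not be paired with each other, because the labels carry no replicate numbers. With ratios only, signal over background sets no limit that could be read here.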
